A study of Mus musculus with 10 samples.

Results

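Type I interferon-stimulated genes were followed in the RNA of 4T1 tumors, and 40 genes were taken by name from the 34449 genes of the deposited table. The list is one of genes known for their induction by type I interferon, and its rule uses no measured value. It was still chosen with earlier results of these data known. All 40 were found, and 39 had a mean of at least 1 FPKM over the 10 libraries, the limit above which 12802 genes were tested. FPKM values are levels scaled by transcript length and by sequenced fragments, so levels of different genes can be set side by side, while comparisons between libraries also move with the sum of all FPKM values, which was 305814 to 359672 per library.

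4T1 is a mouse triple-negative breast carcinoma line, grown in the study as tumors in the flank of BALB/C mice, which the labels give as 9 weeks old. The libraries fall into 5 of control tumors (C1 to C5) and 5 of tumors given the therapy (T1 to T5), for which the methods name BC@Z-M + L. BC@Z-M is an acid-degradable metal-organic framework particle that carries the hypoxia-activated photosensitizer BN-O and a vascular disrupting agent under a coat of M1-like macrophage membrane, and L is near-infrared laser light on the tumor. The comparison asks what this photo-immunotherapy, which the study links to signaling through STING, left in the interferon response of the whole tumor. What the control mice received, when the tumors for RNA were taken and whether each library is 1 mouse are not stated in the labels or methods. The design text speaks of triplicate profiles where 5 libraries per group are listed, so each library is called a tumor only by its label, and p-values reflect only how far these libraries lie apart.

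Type I interferons bind the receptor of IFNAR1 and IFNAR2 chains, and the kinases JAK1 and TYK2 then pass on the signal. A complex that holds STAT2 and IRF9 binds the interferon-stimulated response element in the promoters of target genes. The induced proteins sense foreign or misplaced nucleic acid, block translation and replication, and tag proteins with ISG15, and several of them feed back on the pathway itself. In tumors such genes can be expressed by cancer cells as well as by immune and stromal cells.

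To show what many of these promoters share, RefSeq promoter windows (GRCm38.p6, from 250 bases before to 50 bases after a start site) were searched on both strands for the response element core GAAANNGAAA. Windows were found by symbol for 29 of the 40 members, and 15 of the 29 (51.7%) had a match in at least 1 window, against 3.99% of all 27025 genes with a window. By windows these were 17 of 35 for the members and 3.44% of all 32851. The core of the gamma-activated site, TTCNNNGAA, was found in 6 of the 29 (20.7%) against 9.55% of all genes, and in Bst2 the match overlapped that of the first core. A match is a description of letters and no shown binding site. The stretches below belong to members described in the results, with the response element core, or its reverse complement, in capitals.
Isg15, chr4:156200865-156200906, minus strand: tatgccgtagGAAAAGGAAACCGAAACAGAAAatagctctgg
Ifit1, chr19:34640775-34640823, plus strand: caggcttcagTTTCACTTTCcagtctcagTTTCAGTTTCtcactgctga
Ifit3, chr19:34583363-34583426, plus strand: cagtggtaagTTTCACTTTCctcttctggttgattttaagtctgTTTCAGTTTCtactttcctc
Ifit3b, chr19:34607759-34607822, plus strand: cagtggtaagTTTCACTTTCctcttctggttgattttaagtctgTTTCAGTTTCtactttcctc
Oas1a, chr5:120907520-120907555, minus strand: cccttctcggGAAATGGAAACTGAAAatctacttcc
Oas1g, chr5:120887606-120887641, minus strand: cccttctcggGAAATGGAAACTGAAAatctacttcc
Bst2, chr8:71537577-71537612, minus strand: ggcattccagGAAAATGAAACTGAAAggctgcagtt
Stat2, chr10:128270266-128270295, plus strand: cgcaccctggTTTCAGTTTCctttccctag
Isg15 had 3 overlapping matches within 1 run of bases, from 78 bases before the start. Ifit3 and Ifit3b had the same 64 bases here and Oas1a and Oas1g the same 36, and their transcripts are alike too. Of the stretches of 50 bases in Ifit3 transcripts 51.2% also occurred in Ifit3b, and of those in Oas1a 57.6% also occurred in Oas1g. How the authors' counting split reads between such copies is not stated, so the values within these pairs are uncertain.

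No member passed the test between control and therapy tumors, while the RNA of most members differed more than 2-fold among the tumors of each group. Limma called 0 of the 39 tested members at an adjusted p under 0.05, as it did for 0 of the 12802 genes (0%). At an unadjusted p under 0.05 there were 0 members against 2.52% of all genes (323). The smallest unadjusted p of a member was 0.243, for Dtx3l, and the limma adjusted p of the members was 0.997 or more. A log2 fold change here is the therapy mean of log2(FPKM + 1) minus the control mean. They were above 0 for 14 members and below 0 for 25, against 46.2% of all genes above 0, with a median of -0.053 for the members and -0.012 for all genes. No member had groups that did not overlap, while 0.414% of all genes (53) did. On the estimated counts edgeR called 0 of 40 members and 0 of 18668 genes (0%), and DESeq2 called 0 of 40 members and 6 of 32880 genes (0.0182%).

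The 95% interval of the difference held 0 for all 39 tested members, and it was wide. Its half-width had a median of 0.72 on the log2 scale, or 1.65-fold, against 0.29 over all genes. For 33 members the interval reached past 0.5 or -0.5 and for 14 past 1 or -1, so for those 14 a 2-fold difference lay within the interval. The sign of the median over the members depended on single libraries. It was 0.10 without T5, 0.055 without C4, 0.029 without C3 and 0.0042 without T2, and -0.24 without T4, -0.20 without C2, -0.14 without C1 and -0.11 without T3. Without T5, 34 of the 39 members lay above 0, and without T4 or C2 6 of 39 did. These tumors are bulk tissue, in which fewer cells of a type and less RNA per cell cannot be told apart.

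**Figure D1:**
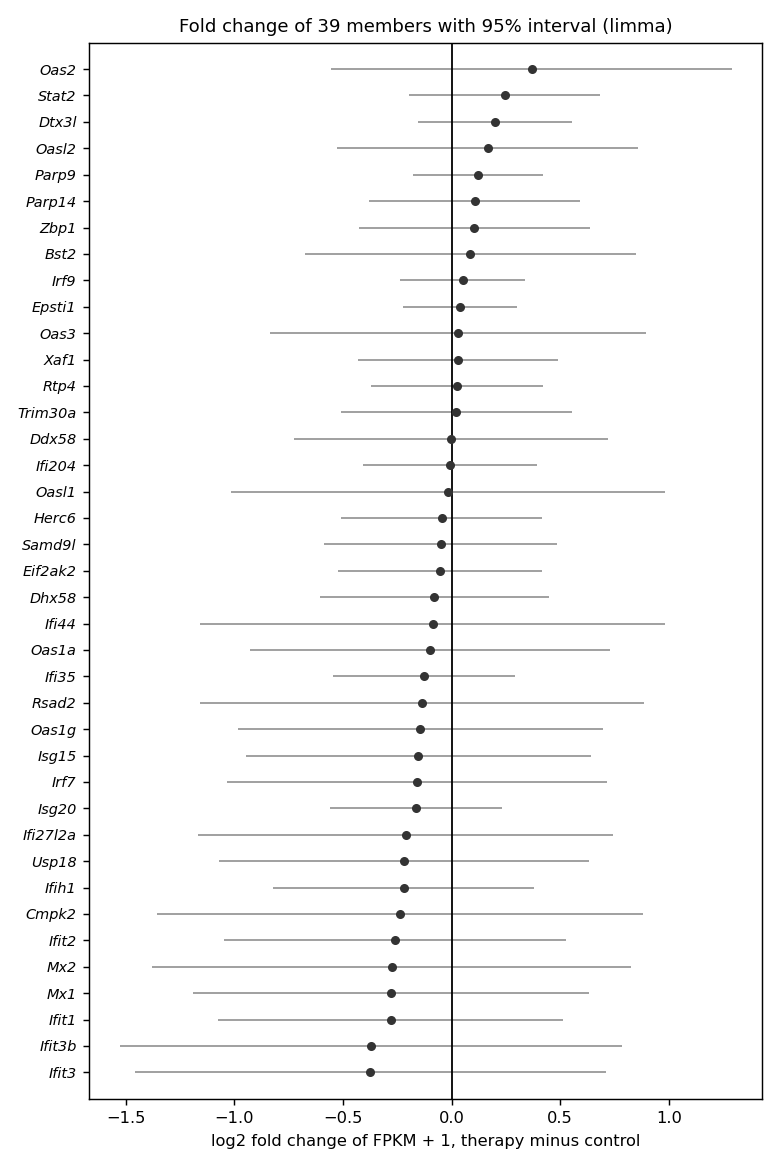
Log2 fold change of FPKM + 1 (therapy minus control) for the 39 tested members, as points with 95% intervals from limma, ordered by value. Every interval holds 0, and the values run from -0.37 for Ifit3 to 0.37 for Oas2.

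Levels between libraries of the same group were far apart. The SD of log2(FPKM + 1) within a group, pooled over both groups, had a median of 0.61 over the 39 members and 0.21 over all genes, and 26 members were among the tenth of all genes (10.0%) with the largest SD. By group the median SD of the members was 0.60 in control and 0.58 in therapy tumors, against 0.19 and 0.21 for all genes. The highest library exceeded the lowest of its group more than 2-fold for 28 members in control and 29 in therapy tumors, against 18.5% and 23.9% of all genes. It did so more than 4-fold for 9 and 14 members, against 409 and 715 (5.59%) of all 12802 genes. The difference between the group means took up a median of 1.7% of a member's variation over the 10 libraries, and at most 13.7%, against a median of 5.84% over all genes. Estimated counts of the tested members were at least 216 in every library.

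**Figure D2:**
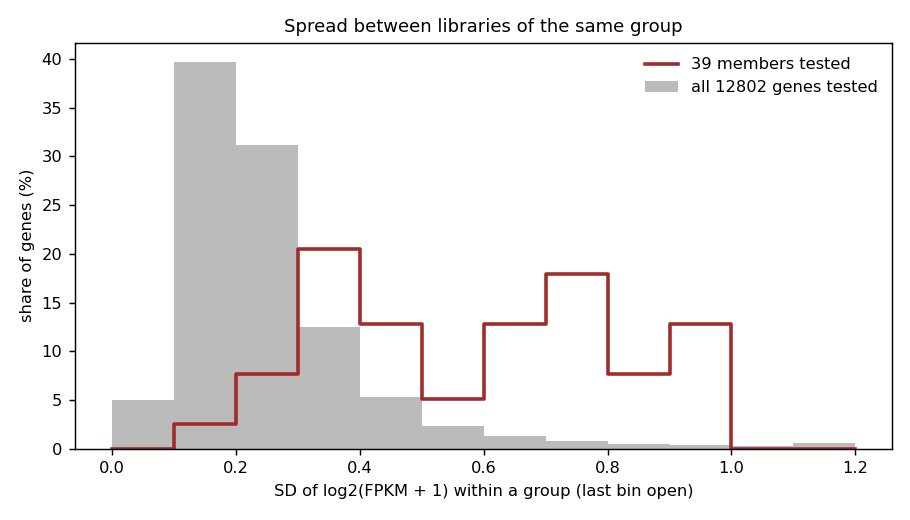
Share of genes (%) by the SD of log2(FPKM + 1) within a group, in bins of 0.1, for the 39 tested members (line) and all 12802 tested genes (bars). The median is 0.61 for the members and 0.21 for all genes.

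The members moved as a block from library to library. Their mean of log2(FPKM + 1) was 3.67, 3.38, 4.52, 4.58 and 4.07 in C1 to C5 and 4.06, 3.71, 4.18, 4.70 and 3.25 in T1 to T5. C3, C4 and T4 were thus high, C2 and T5 low, and both groups held a high and a low end. T4 had the highest of all 10 values for 24 of the 40 members and T5 the lowest for 22. Within therapy tumors T4 was highest and T5 lowest for 37 members each, and within control tumors C2 was lowest for 32, with C3 highest for 20 and C4 for 19. Each member was compared with the mean of the other members over the 10 libraries, after subtracting group means. Pearson's r had a median of 0.95 and Spearman's rho a median of 0.94, with r above 0.9 for 31 of 40 members, while among 12763 genes that are no members the median r with the members' mean was 0.18 and 2.03% were above 0.9. The same libraries serve for every gene, so the values describe 10 libraries and no p is given. Without T5 and C2, the libraries farthest from the median, the median r was 0.94 and 27 members were above 0.9.

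**Figure D3:**
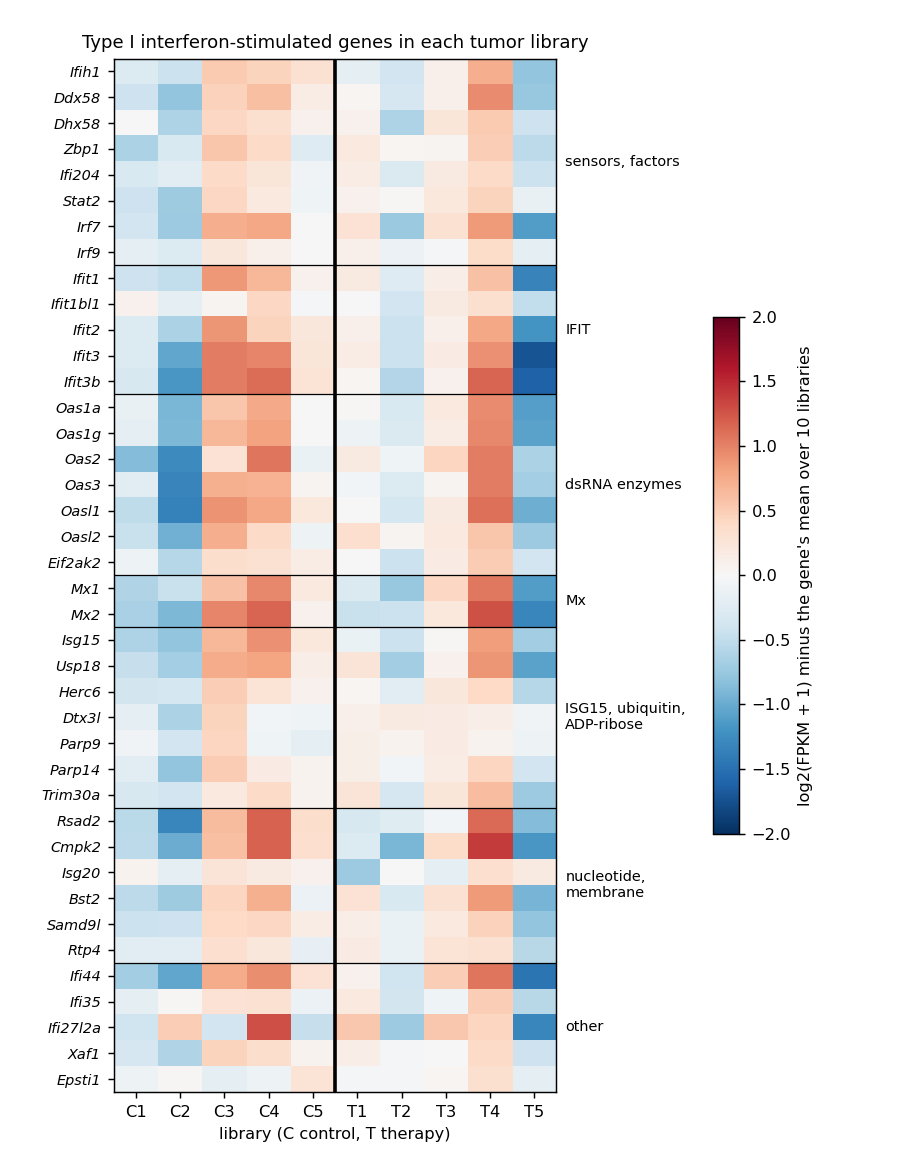
Log2(FPKM + 1) of the 40 members minus each gene's mean over the 10 libraries, by library (columns) and by role (rows), with red above and blue below the mean. C3, C4 and T4 are high and C2 and T5 low across nearly all rows. Dtx3l, Parp9, Isg20, Ifi27l2a and Epsti1 are the members that follow least over both groups together.

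The order of the libraries was not that of their depth. Estimated counts summed to 53411182 to 77510631 per library, with T1 the highest and C1 and T3 the lowest, and r of the members' mean with this total was 0.20 after subtracting group means. Its r with the sum of all FPKM values, which was largest in C2 (359672), was -0.54. Markers of epithelial tumor cells, the keratin and Epcam genes, had a mean of log2(FPKM + 1) of 7.28 to 7.60 in control and 7.14 to 7.82 in therapy tumors, and r with the members' mean was -0.18. By gene the markers differed, with r of 0.73 for Krt7, 0.001 for Epcam, -0.024 for Krt8, -0.45 for Krt19 and -0.63 for Krt18. The part of these measures in the spread of the members was not tested.

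Among sensors and transcription factors, 8 members, 3 lay above 0 and 5 below it, and none passed the test. Ifi204 (ENSMUSG00000073489, chromosome 1), a DNA sensor of the AIM2-like receptor family, had 38.4, 40.4, 62.0, 56.4 and 45.1 FPKM in C1 to C5 and 52.6, 38.6, 54.1, 62.4 and 35.0 FPKM in T1 to T5. T4, C3 and C4 were high and T5 low, and the groups overlapped fully. Its log2 fold change was -0.0056 (95% interval -0.41 to 0.40). Of its 50-base stretches 20.0% also occur in other genes, with Ifi211 sharing most, and its sign turned with TPM scaling (0.041), median-ratio scaling (0.013), edgeR (0.016) and DESeq2 (0.015).

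Irf7 (ENSMUSG00000025498, chromosome 7), the factor that amplifies interferon transcription, varied more. It had 30.5, 23.9, 67.2, 69.0 and 40.6 FPKM in C1 to C5 and 49.5, 23.7, 49.8, 73.7 and 17.9 FPKM in T1 to T5. T4, C4 and C3 reached about the same level and T5, T2 and C2 stood lowest, a 4.11-fold range among therapy tumors and a 2.89-fold range among controls. Its log2 fold change was -0.16 (95% interval -1.03 to 0.72), and it lay between -0.39 and 0.10 when 1 library was left out, above 0 without C3, C4, T2 or T5.

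Stat2 (ENSMUSG00000040033, chromosome 10), a subunit of the complex that binds the response element, had the second highest fold change of the members. Its level was 12.1, 9.59, 22.2, 18.9 and 15.4 FPKM in C1 to C5 and 17.6, 16.7, 19.1, 22.7 and 14.6 FPKM in T1 to T5. C2 and C1 were below all therapy tumors, while C3 was near T4, so the groups overlapped. Between the groups the log2 fold change was 0.24 (95% interval -0.20 to 0.68), unadjusted p = 0.249 in limma, and it was 0.095 without C2 and 0.38 without C3. Its partner Irf9 had 0.051 and was among the steadiest members, with an SD of 0.21 within groups. The RNA sensor genes Ifih1, Ddx58 and Dhx58, encoding MDA5, RIG-I and LGP2, followed the members' mean with r of 0.97, 0.99 and 0.90. Zbp1, a sensor of Z-form nucleic acid, had a level of 18.0 to 42.5 FPKM in control and 19.5 to 40.7 FPKM in therapy tumors.

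The IFIT genes encode proteins that bind foreign RNA ends and block its translation, and they lie in a cluster on chromosome 19. All 5 lay below 0, with a median log2 fold change of -0.28, and 0 of the 4 tested passed. Ifit3 (ENSMUSG00000074896, chromosome 19), a scaffold of the IFIT complex, had 14.0, 7.76, 35.7, 34.3 and 20.3 FPKM in C1 to C5 and 18.8, 12.3, 19.2, 32.9 and 4.46 FPKM in T1 to T5. C3, C4 and T4 were near one another and T5 was lowest of all, a 7.36-fold range among therapy tumors, with full overlap of the groups. Therapy minus control, this gave a log2 fold change of -0.37 (95% interval -1.46 to 0.71), the lowest of all members, and it ranged from -0.68 to 0.0089 with 1 library left out. The value above 0 came without T5.

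Ifit3b (ENSMUSG00000062488, chromosome 19), the near copy of Ifit3, had 5.62, 2.68, 15.9, 17.0 and 9.05 FPKM in C1 to C5 and 7.48, 4.53, 7.80, 17.6 and 1.69 FPKM in T1 to T5. It kept nearly the order of Ifit3, with C4 in place of C3 as the highest control, an r of 0.99 between the pair and 1.87 to 2.89 times as much Ifit3 as Ifit3b in each library. In limma its log2 fold change was -0.37 (95% interval -1.53 to 0.79), from -0.71 without C2 to -0.010 without T5. Across the 10 libraries Ifit3b followed the mean of the other members most closely of all 40, with r of 0.99.

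Ifit1 (ENSMUSG00000034459, chromosome 19), which binds RNA whose cap lacks methylation, had 7.94, 7.43, 20.7, 17.7 and 11.6 FPKM in C1 to C5 and 12.4, 8.95, 12.0, 16.8 and 3.72 FPKM in T1 to T5. C3 was highest and T5 lowest. The groups differed by a log2 fold change of -0.28 (95% interval -1.07 to 0.51), with -0.46 to 0.019 when 1 library was left out, the latter without T5. Ifit2 had -0.26, and Ifit1bl1, an Ifit1 relative of 0.741 FPKM on average, was under the limit for the test at -0.14.

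Enzymes that double-stranded RNA activates, grouped with synthetase-like relatives, had the widest range of log2 fold changes of the role groups, from -0.14 to 0.37. The oligoadenylate synthetases make the messenger that switches on RNase L, and Eif2ak2 encodes PKR, which stops translation. Of these 7 members 3 lay above 0 and 4 below it, and none passed. Oas1a (ENSMUSG00000052776, chromosome 5) had 33.2, 19.0, 54.6, 63.1 and 36.6 FPKM in C1 to C5 and 37.4, 29.6, 42.3, 71.6 and 16.5 FPKM in T1 to T5. T4 and C4 were highest and T5 and C2 lowest, so each group spanned nearly the whole range. Its log2 fold change was -0.10 (95% interval -0.93 to 0.73), or -0.35 to 0.16 with 1 library left out, above 0 without C3, C4 or T5, and Oas1g, its near copy, had -0.14 and an r with it of 0.996.

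Oas2 (ENSMUSG00000032690, chromosome 5) had 3.75, 2.57, 9.57, 17.1 and 6.87 FPKM in C1 to C5 and 8.84, 7.12, 10.6, 16.6 and 4.59 FPKM in T1 to T5. C4 and T4 were at one level and C2 and C1 lowest, and all therapy tumors lay above C1 and C2. The log2 fold change of 0.37 (95% interval -0.55 to 1.29) was the highest of the members, with the widest interval among those above 0, and it ran from 0.095 without C2 to 0.68 without C4, with 0.16 without T4 and 0.20 without C1. Its neighbour Oas3, encoding another synthetase, had 0.029.

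Oasl2 (ENSMUSG00000029561, chromosome 5), which encodes a synthetase-like protein, had 14.1, 9.49, 32.8, 25.7 and 18.1 FPKM in C1 to C5 and 25.0, 20.3, 22.6, 29.1 and 11.3 FPKM in T1 to T5. C3 was highest and C2 lowest, and the therapy tumors apart from T5 lay between 20.3 and 29.1 FPKM. Between the groups the log2 fold change was 0.17 (95% interval -0.53 to 0.86), and -0.056 without C2. Oasl1 had -0.017 at an SD of 0.85 within groups. PKR's gene was steadier, with an SD of 0.39 and a log2 fold change of -0.053.

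Mx1 and Mx2 encode dynamin-like GTPases that trap viral components, and they had the largest within-group SD of any role group, with a median of 0.86. Mx1 (ENSMUSG00000000386, chromosome 16) had 2.31, 2.68, 6.54, 8.73 and 4.72 FPKM in C1 to C5 and 3.10, 1.97, 5.65, 9.36 and 1.32 FPKM in T1 to T5. T4 and C4 were highest and T5 lowest. Therapy minus control, this gave a log2 fold change of -0.28 (95% interval -1.19 to 0.63), or -0.58 without T4, -0.074 without C4 and -0.036 without T5.

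Mx2 (ENSMUSG00000023341, chromosome 16) had 2.27, 1.73, 9.04, 10.5 and 4.42 FPKM in C1 to C5 and 2.76, 2.81, 4.88, 11.4 and 1.06 FPKM in T1 to T5. The range was 10.8-fold among therapy tumors, the widest of the members, and 6.06-fold among controls. In limma its log2 fold change was -0.28 (95% interval -1.38 to 0.83), and with 1 library left out it ran from -0.63 to 0.017, above 0 without T5.

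**Figure D4:**
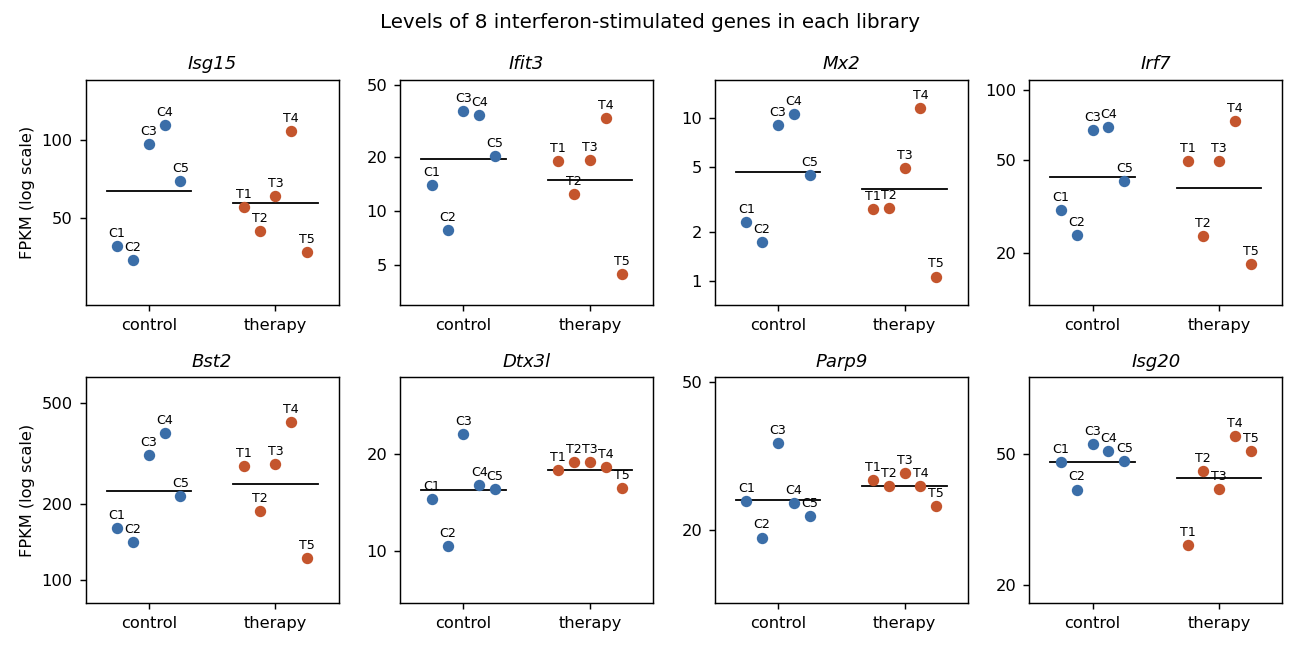
FPKM (log axis) of 8 members in each control (blue) and therapy (red) library, with a line at the mean of log2(FPKM + 1) converted back to FPKM. Isg15, Ifit3, Mx2, Irf7 and Bst2 share high C3, C4 and T4 and low C2 and T5, while Dtx3l and Parp9 vary little among therapy tumors and Isg20 is lowest in T1.

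Enzymes of ISG15, ubiquitin and ADP-ribose form the next group, of which 4 members lay above 0, 3 below it and none passed. Isg15 (ENSMUSG00000035692, chromosome 4), the ubiquitin-like modifier itself, had 38.9, 34.5, 96.2, 114 and 69.6 FPKM in C1 to C5 and 55.1, 44.6, 61.0, 108 and 36.8 FPKM in T1 to T5. C4, T4 and C3 stood apart at 96.2 FPKM or more, and C2, T5 and C1 were at 38.9 FPKM or less. The groups overlapped fully, with 70.7 ± 34.9 FPKM in control and 61.2 ± 27.9 FPKM in therapy tumors (SD, n = 5 each). The groups differed by a log2 fold change of -0.15 (95% interval -0.95 to 0.64), or -0.38 to 0.055 when 1 library was left out, above 0 without C4 or T5.

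Usp18 (ENSMUSG00000030107, chromosome 6), the protease that removes ISG15 and blocks the receptor as a brake, had 12.8, 10.8, 30.5, 31.8 and 19.8 FPKM in C1 to C5 and 21.5, 10.7, 19.0, 33.8 and 8.02 FPKM in T1 to T5. It followed the other members with r of 0.98, highest in T4 and lowest in T5. Its log2 fold change was -0.22 (95% interval -1.07 to 0.63), and 0.022 without T5. The ligase gene Herc6 had -0.046 and Trim30a, encoding a tripartite-motif protein, 0.021.

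Dtx3l and Parp9, whose proteins form an E3 ligase and ADP-ribosyltransferase complex, and Parp14 are neighbours on chromosome 16. Dtx3l (ENSMUSG00000049502, chromosome 16) had 14.5, 10.4, 22.9, 16.0 and 15.6 FPKM in C1 to C5 and 17.8, 18.9, 18.8, 18.2 and 15.7 FPKM in T1 to T5. The therapy tumors spanned 1.20-fold and all lay above C1, C2 and C5, T5 by the smallest margin, while C3 was the highest of all 10. Between the groups the log2 fold change was 0.20 (95% interval -0.16 to 0.55).

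Parp9 (ENSMUSG00000022906, chromosome 16) had 23.9, 19.1, 34.3, 23.6 and 21.8 FPKM in C1 to C5 and 27.3, 26.3, 28.4, 26.3 and 23.3 FPKM in T1 to T5. Among therapy tumors it spanned 1.22-fold, among controls 1.80-fold, with C3 highest and C2 lowest. Therapy minus control, this gave a log2 fold change of 0.12 (95% interval -0.18 to 0.42). Without C3, Dtx3l had 0.34 (unadjusted p = 0.0247) and Parp9 0.24 (unadjusted p = 0.0326), and the limma adjusted p was 0.863 for both. In that setting they were the 2 of 39 members with an unadjusted p under 0.05. This was about the share over all genes, 599 of 12808, where the fit with all libraries had 323. Without C2 the log2 fold changes of the pair were 0.068 and 0.041, the lowest of the leave-one-out fits for each.

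This pair kept to another order of the libraries than the other members. With the mean of the other members r was 0.67 for Dtx3l and 0.60 for Parp9, and with the mean of the list of interferon-gamma genes it was 0.81 and 0.86 (rho of 0.73 for each). They were the 2 of 40 members that lay closer to that list than to the other members, where the median r with it over the 40 was 0.49. Without C3 and T1, the libraries farthest from the median of that list, the r with it was 0.54 for Dtx3l and 0.33 for Parp9, and without C3 alone it was 0.42 and 0.37, so the higher values rest on C3. Parp14 followed both, with 0.92 for the members and 0.66 for the list. These orders rest on 10 libraries and were noticed after the values were seen.

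The group of nucleotide and membrane effectors had 2 members above 0 and 4 below it, and none passed. Bst2 (ENSMUSG00000046718, chromosome 8), which encodes tetherin, the protein that holds budding virus at the membrane, was the most abundant member. It had 161, 141, 313, 382 and 215 FPKM in C1 to C5 and 283, 188, 288, 421 and 122 FPKM in T1 to T5. T4 and C4 were highest and T5 lowest, and the groups overlapped fully, with 242 ± 103 FPKM in control and 260 ± 113 FPKM in therapy tumors (SD, n = 5 each). In limma its log2 fold change was 0.086 (95% interval -0.68 to 0.85), with -0.12 to 0.33 when 1 library was left out, below 0 without C1, C2 or T4.

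Cmpk2 (ENSMUSG00000020638, chromosome 12), a mitochondrial nucleotide kinase, had 9.08, 6.34, 21.0, 32.1 and 17.3 FPKM in C1 to C5 and 11.1, 6.70, 17.8, 37.3 and 5.46 FPKM in T1 to T5. T4 and C4 were highest and T5, C2 and T2 lowest, and the therapy SD of 1.04 on the log2 scale was the largest of any member. The groups differed by a log2 fold change of -0.24 (95% interval -1.36 to 0.88), or -0.62 to 0.029 with 1 library left out, above 0 without C4 or T5. Its neighbour Rsad2, encoding viperin, a radical enzyme against viruses, had -0.14 and an r with it of 0.94.

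Isg20 (ENSMUSG00000039236, chromosome 7), an exonuclease for single-stranded RNA, was the exception of this group. Its level was 47.1, 38.9, 53.3, 50.9 and 47.5 FPKM in C1 to C5 and 26.5, 44.3, 39.1, 56.7 and 50.9 FPKM in T1 to T5. T1 was lowest, where other members were in the middle, and T5 was second highest among therapy tumors, where other members were lowest. The r with the other members was 0.24 over both groups, 0.90 among control and -0.002 among therapy tumors. Its log2 fold change was -0.16 (95% interval -0.56 to 0.23), and -5e-04 without T1. Samd9l and Rtp4, encoding an antiviral factor and a receptor transporter, had -0.051 and 0.024.

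Among the remaining induced proteins 2 members lay above 0, 3 below it and none passed. Ifi35 (ENSMUSG00000010358, chromosome 11), a partner of NMI, had 23.0, 26.9, 32.8, 33.1 and 24.5 FPKM in C1 to C5 and 30.7, 20.5, 24.9, 37.7 and 17.7 FPKM in T1 to T5. T4 was highest and T5 lowest. Between the groups the log2 fold change was -0.13 (95% interval -0.55 to 0.29), with -0.27 without T4 and -0.0028 without T5.

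Ifi27l2a (ENSMUSG00000079017, chromosome 12), which encodes a small hydrophobic protein, had 32.5, 61.2, 32.9, 106.6 and 31.0 FPKM in C1 to C5 and 63.5, 25.6, 63.0, 58.5 and 16.9 FPKM in T1 to T5. C4 was highest and T5 lowest, but C3 was near C1 and C5 and C2 was raised, unlike in the other members. The r of Ifi27l2a with them was 0.53 over both groups, 0.16 among control and 0.86 among therapy tumors. Therapy minus control, its log2 fold change was -0.21 (95% interval -1.17 to 0.74), or -0.37 to 0.089 with 1 library left out, above 0 without C4 or T5. The adipocyte markers Adipoq, Plin1 and Cfd were also highest in C4, with a mean of log2(FPKM + 1) of 4.53 against 0.23 to 1.08 in the other control tumors, and in T4, with 2.69 against 0.60 to 1.73. Their r with Ifi27l2a was 0.69 and with the mean of the members 0.67, and their part in these values was not tested. Ifi44 followed the members with r of 0.99 and a log2 fold change of -0.087, and Xaf1, a pro-apoptotic factor, had 0.028. Epsti1 was low and steady, with 2.47 to 3.78 FPKM in control and 2.51 to 3.97 FPKM in therapy tumors. Its r with the members was 0.33 over both groups, -0.31 among control and 0.93 among therapy tumors.

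The genes that make and pass on the interferon signal were compared with the members. Of 18 type I interferon ligand genes 8 were in the table and none reached a mean of 1 FPKM. Ifnb1, the gene of interferon-beta, had 0.135, 0.0598, 0.0634, 0.334 and 0.151 FPKM in C1 to C5 and 0.0553, 0.118, 0.0897, 0.0496 and 0.155 FPKM in T1 to T5. All of them were 0.334 FPKM or less, with C4 highest and T4 lowest, and no fold is given. The paper itself measured protein, and reports raised interferon-beta by ELISA in tumors given BC@Z-M + L. It also reports more phosphorylated STING, TBK1 and IRF3 there. RNA levels are another measure, and whether the tumors for RNA were taken at the same time is not stated. Of the receptor and kinase genes Ifnar1, Ifnar2, Jak1 and Tyk2, 0 passed and 3 lay above 0, with log2 fold changes of 0.076, 0.14, -0.027 and 0.051. Their mean had an r of -0.36 with the members, with -0.75 for Ifnar2 and 0.56 for Jak1. Ifnar2, encoding the chain of the receptor that binds interferon most tightly, had 15.1, 20.7, 11.8, 14.0 and 13.5 FPKM in C1 to C5 and 16.8, 17.5, 15.6, 15.0 and 17.2 FPKM in T1 to T5. C2, low for the members, was highest, and C3, high for the members, was lowest.

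Nucleic acid sensing genes upstream of interferon gave 0 of 10 calls, with 6 above 0 and a median log2 fold change of 0.0075. The mean over the 11 genes of this list had an r of 0.91 with the members. By gene, the median r of the 10 tested was 0.42, with 3 above 0.5. Tlr3 and Cgas, the receptor of double-stranded RNA and the DNA sensor that makes the STING ligand, followed the members with r of 0.93 and 0.83. Myd88 of the same list had 0.82. Cgas had 3.39, 3.52, 4.97, 4.63 and 4.16 FPKM in C1 to C5 and 3.44, 2.22, 3.45, 6.01 and 2.76 FPKM in T1 to T5. T4 and C3 were highest and T2 lowest. Its log2 fold change was -0.21 (95% interval -0.62 to 0.20), and that of Sting1 0.18 (95% interval -0.035 to 0.40), with an r of -0.12 to the members. Negative regulators had 0 of 4 calls and all 4 above 0. Among them Adar, encoding the RNA-editing enzyme with an interferon-inducible form, followed the members (r of 0.97), while Socs3 ran opposite to them (r of -0.70).

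The mean over a second list of 28 interferon-induced genes, none of them a member, kept nearly the same order. This mean of log2(FPKM + 1) was 4.13, 3.98, 4.72, 4.57 and 4.41 in C1 to C5 and 4.51, 4.28, 4.50, 4.82 and 3.97 in T1 to T5. T4 and C3 were again highest and T5 and C2 lowest, with an r of 0.985 to the members. None of the 28 passed limma's test or had an unadjusted p under 0.05, and 20 lay above 0, with a median log2 fold change of 0.086. By gene, the median r with the members was 0.84, with 7 of the 28 above 0.9 and 24 above 0.5. Ddx60, encoding a helicase, Sp100 and Pml, encoding nuclear body proteins, were the closest, each with r of 0.97 or more. The lowest were Ifitm3, the most abundant of the list at a mean of 589 FPKM (r of -0.16), Ifi47 (0.26), Psmb8 (0.35) and Psmb9 (0.40).

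Genes known for their induction by interferon-gamma behaved less like the members. Of 12 tested, 0 passed and 12 lay above 0, with a median log2 fold change of 0.23 against -0.053 for the members. Their mean of log2(FPKM + 1) was 4.34, 4.37, 5.20, 4.51 and 4.45 in C1 to C5 and 5.02, 4.94, 4.71, 4.83 and 4.63 in T1 to T5. All therapy tumors lay above 4 of the 5 controls, and C3 was highest of all. The r with the members' mean was 0.51, and Ifng itself had a mean under 1 FPKM. By gene, the median r over the 12 tested was 0.61, with 7 above 0.5. It ran from 0.047 for Cxcl9 to 0.93 for Irgm2. The difference between this list and the members was not tested.

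**Figure D5:**
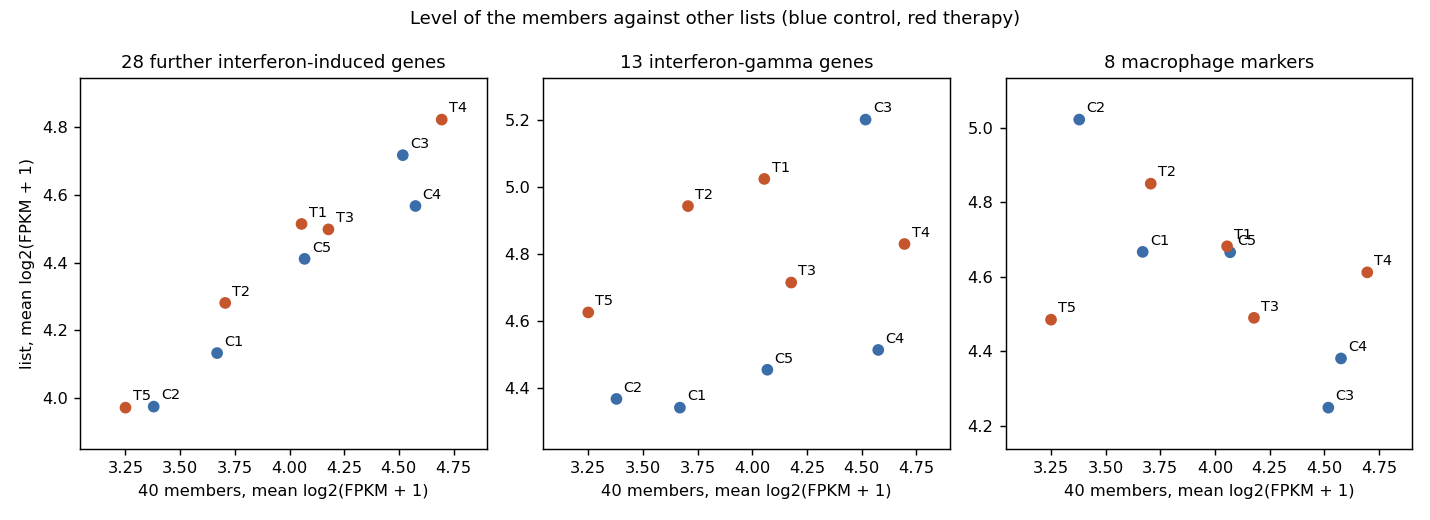
Mean of log2(FPKM + 1) over the 40 members (x axes) against the mean over 28 further interferon-induced genes, 13 interferon-gamma genes and 8 macrophage markers (y axes), 1 point per library, control in blue and therapy in red. The first list follows the members closely (r of 0.985 after subtracting group means), the second less (0.51) and the macrophage markers run the other way (-0.57).

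Mean levels of the macrophage, neutrophil and T cell markers did not share the order of the members. The 8 macrophage markers had a mean of log2(FPKM + 1) of 4.25 to 5.02 in control and 4.49 to 4.85 in therapy tumors. This mean was highest in C2, where the members were low, with an r of -0.57, though Fcgr1 had 0.33. The 5 neutrophil markers ranged from 5.34 to 6.001 and from 4.91 to 6.25, with an r of -0.45, and T5 and T4 were the highest and lowest of all 10. The 7 T cell markers, of which only 4 reached a mean of 1 FPKM, ranged from 0.63 to 0.96 and from 0.86 to 1.998, highest in T2, with an r of -0.48. Markers of plasmacytoid dendritic cells, a major source of type I interferon, were all under a mean of 1 FPKM (0 of 5 tested), at 0.24 to 0.34 and 0.34 to 0.58, with an r of 0.22. By gene this r ran from -0.93 for Ccr9 to 0.27 for Cox6a2, at mean levels of only 0.075 and 0.62 FPKM. The 4 B cell markers were under the limit of 1 FPKM too (0 of 4 tested), at 0.15 to 0.45 and 0.22 to 0.46. Their mean was highest in T4 and C4, with an r of 0.51, the same as that of the interferon-gamma list, and with 0.80 for Cd79a. No marker of these lists was at 0 in every library. The part of these cells in the levels of the members was not tested.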

How the data were processed

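RNA was sequenced in 10 libraries of 4T1 tumor tissue. After FastQC, the authors aligned reads to the mouse genome with HISAT2 and made the deposited FPKM values with StringTie, and the submitters' processing notes add cutadapt 1.9. The notes name GRCm38 and the methods another annotation, so promoter sequences were matched by symbol only. The deposited estimated counts are whole numbers, and how they were made is not given in the sources used here. Low counts pile up at 4, so 1 count need not be 1 read.

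In R 4.3.3, limma 3.58.1 (variance trend on) was run on log2(FPKM + 1), a pseudocount of 1, for the 12802 genes with a mean of at least 1 FPKM, with Benjamini-Hochberg adjustment over all of them. This scale understates changes of low genes. Estimated counts were tested with edgeR 4.0.16 and DESeq2 1.42.0 as alternatives. Others were a pseudocount of 0.1, no filter, TPM and median-ratio scaling, no trend, a replicate block and leaving out each library. The tests were checked on simulated data.

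Values in every library are given for the 2 most abundant members of each role group, the one with the largest absolute fold change in it, and the 3 largest rises and falls, 20 genes in all. Members and lists were chosen with earlier results of these data known, so they are no independent evidence. A signaling gene of these lists is not reported here. Stretches of 50 bases shared between genes were counted in GENCODE transcripts. None of the columns of per-sample values was left unused.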

Additional observations from a re-analysis of the deposited data

How the results depend on the processing

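No member was called under any of the 18 alternatives. With 1 library left out, no member had groups that did not overlap. The share over all genes was not computed there, and with all libraries it was only 0.414%. DESeq2 called 4 genes higher (Il2rb, Igha, Ighg2b and Cd6) and 2 lower (Gm867 and 1700028K03Rik), none a member, where limma called 0 of each with 323 at an unadjusted p under 0.05. The median log2 fold change of the members ran from -0.24 to 0.10 with 1 library left out. The median SD of the members ran from 0.46 to 0.68 among control and from 0.40 to 0.66 among therapy tumors. Of 20 named members, 12 changed sign in at least 1 leave-one-out fit, with ranges of -0.10 to 0.10 for Ifi204, -0.39 to 0.10 for Irf7, -0.68 to 0.0089 for Ifit3, -0.46 to 0.019 for Ifit1, -0.35 to 0.16 for Oas1a, -0.056 to 0.37 for Oasl2, -0.63 to 0.017 for Mx2, -0.38 to 0.055 for Isg15, -0.47 to 0.022 for Usp18, -0.12 to 0.33 for Bst2, -0.62 to 0.029 for Cmpk2 and -0.37 to 0.089 for Ifi27l2a. In other settings only Ifi204, near 0 at -0.0056, changed sign, to 0.041 with TPM scaling, 0.013 with median-ratio scaling, 0.016 with edgeR and 0.015 with DESeq2. The cause was not tested.

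The replicate block gave 0 calls, with 366 genes at an unadjusted p under 0.05. The deviations of libraries of the same number had r of -0.28, 0.028, 0.0030, 0.53 and -0.096 for numbers 1 to 5. Of 5 control libraries, 1 correlated best with its own number. The labels do not say what the numbers stand for, and so few values cannot tell whether they pair the samples.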

Other observations

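Some genes outside all lists followed the members as closely as the members did each other. These genes were picked with their values in view. The closest of the 12763 tested genes that are no members were Phc1, a Polycomb subunit (r of 0.990 with the members' mean over the 10 libraries, after subtracting group means), Dmrta2, a doublesex-related transcription factor (0.989), and Oas1b, a paralog of the oligoadenylate synthetases (0.987), at mean levels of 6.32, 6.82 and 7.28 FPKM. Zmym4, a zinc finger gene, had 0.979, Ythdf2, encoding a reader of methylated RNA, 0.974 and Cmtr1, encoding a cap methyltransferase, 0.972. Among the members, r with the others had a median of 0.967 for the 15 with a match to the response element core, 0.954 for the 14 with a window and no match and 0.917 for the 11 with no window, and the median SD within groups was 0.67, 0.41 and 0.44. Of 80 sets of 5 libraries, 1 for each member and group, 0 held a library far from the others by Dixon's 95% limit.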
